A study of Mus musculus with 6 samples.

Results

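The genes described here encode the machinery of DNA replication and mitosis, together with the cyclins and inhibitors that set the pace of the cell cycle. There were 44 such genes, listed by symbol: 19 S-phase genes, 21 mitotic genes, the D cyclins Ccnd1 and Ccnd2, and the inhibitor genes Cdkn1a and Cdkn1b. Of these, 43 had a probe set annotated to their symbol alone, out of 18193 genes so represented on the Affymetrix mouse genome array. Ccnb1, the cyclin of mitotic entry, was not analysed here. All of those 43 passed the filter on dim genes that left 14170 genes for testing, and none came near background, since their lowest intensity was 283.9 and the highest of the bacterial probe sets that served as unspiked controls was 11.2.

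The 3 Mest-KO pools carried a conditional knockout of the T-box transcription factor gene Tbx1 made with T-Cre, a Cre recombinase active in mesoderm. The 3 control pools were heterozygous for the conditional Tbx1 mutation and carried T-Cre too. Each pool held tissue of 3 mouse embryos at embryonic day 11.5, namely the otic vesicle, an epithelial pouch that becomes the inner ear, and the surrounding periotic mesenchyme, and had an array of its own. Sources of Tbx1 outside the mesoderm, such as the otic epithelium, are not reached by this Cre. The sex of the embryos is not given in the sources used here.

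In the cell cycle, D cyclins and then E cyclins drive cells out of G1 and release E2F transcription factors, which switch on the genes of S phase. A later wave of genes, needed for spindle assembly and chromosome segregation, is made in G2 and M and is repressed in resting cells through DREAM and related complexes. Both waves are high in dividing tissue, so their mRNA levels are commonly read as a measure of how much of a tissue is cycling. At this stage the otic epithelium and the mesenchyme around it are growing, while neurons of the cranial ganglia leave the cycle as they form.

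The arrays were closely alike. Correlations of log2 intensities across the tested genes ran from 0.991 to 0.993 within groups and from 0.987 to 0.992 across groups. Tbx1 read 520.5, 578.0 and 409.9 in Mest-KO 1, 2 and 3, against 524.5, 567.3 and 446.7 in control 1, 2 and 3 (exact permutation p = 0.9). The groups overlapped, and this probe set does not check the labels, because Tbx1 is also made outside mesoderm and the sources do not say where the probe set lies in the gene. Markers of both parts of the dissection were present, with a summed intensity of 10811 to 11764 in Mest-KO and 10498 to 11639 in control for 11 otic epithelium genes, and of 34602 to 38117 in Mest-KO and 35983 to 37941 in control for 10 genes of periotic mesenchyme. Bright genes weigh most in such sums. Averaged as log2 relative to the 6 arrays, the means of the mesenchyme genes did not overlap between groups. They read -0.16, 0.0053 and -0.061 in Mest-KO 1, 2 and 3, against 0.11, 0.066 and 0.041 in control 1, 2 and 3. Their medians did overlap, at -0.12, 0.061 and -0.021 in Mest-KO, against 0.053, 0.0081 and 0.036 in control. Of the 10 mesenchyme genes, 6 were lower and 4 higher in Mest-KO. The otic epithelium averages overlapped. At an unadjusted p under 0.05 (limma) there were 2 otic epithelium genes (18.2%) and 2 mesenchyme genes (20.0%), all lower in Mest-KO. The 2 mesenchyme genes were Pou3f4 and Prrx2, with log2 differences, Mest-KO minus control, of -0.76 and -0.30. Of all genes, 8.97% were at that level.

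The promoters of the S-phase and mitotic genes carried different motifs, which the choice of genes did not use. Promoter windows of 300 bases, from 250 before to 50 after the transcription start, were taken from RefSeq (GRCm38.p6) for 36 of the 44 genes and searched on both strands. An E2F site, spelled TTTCGCGC or TTTGGCGC, stood in 6 of 16 S-phase genes (Cdt1, Mcm3, Mcm5, Mcm6, Mcm7 and Pola1) and in 1 of 18 mitotic genes (Cdk1), against 0.929% of 27025 genes with a window. The cell cycle genes homology region, or CHR, spelled TTTGAA, stood in 13 of 18 mitotic genes and in 1 of 16 S-phase genes (Mcm2), against 20.2% of all genes. CCAAT boxes, spelled CCAAT, stood in 88.9% of the mitotic and 62.5% of the S-phase genes, against 41.1% of all genes. A match describes the letters in these windows and is not evidence of binding. These 3 windows are shown because they stand for an S-phase promoter, a promoter with both kinds of motif and a mitotic promoter; capitals mark the motifs, which in Mcm5 include overlapping E2F spellings on the opposite strands. Mcm5, which encodes a subunit of the replicative helicase, lies on the plus strand at chr8:75109259-75109558, Cdk1, which encodes the mitotic kinase, on the minus strand at chr10:69352863-69353162, and Cenpa, which encodes the histone H3 variant of centromeres, on the plus strand at chr5:30666636-30666935.
Mcm5: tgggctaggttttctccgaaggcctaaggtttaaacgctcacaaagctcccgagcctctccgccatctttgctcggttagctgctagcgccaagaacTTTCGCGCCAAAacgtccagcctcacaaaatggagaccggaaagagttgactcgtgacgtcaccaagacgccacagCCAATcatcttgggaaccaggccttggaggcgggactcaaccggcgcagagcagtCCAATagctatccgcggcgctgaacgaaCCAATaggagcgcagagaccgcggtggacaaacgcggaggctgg
Cdk1: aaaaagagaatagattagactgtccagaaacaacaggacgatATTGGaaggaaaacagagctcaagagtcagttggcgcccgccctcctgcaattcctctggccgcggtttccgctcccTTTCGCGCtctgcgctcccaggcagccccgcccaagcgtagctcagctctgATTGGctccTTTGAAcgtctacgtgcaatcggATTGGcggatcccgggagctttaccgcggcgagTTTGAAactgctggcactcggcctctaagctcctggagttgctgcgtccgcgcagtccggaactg
Cenpa: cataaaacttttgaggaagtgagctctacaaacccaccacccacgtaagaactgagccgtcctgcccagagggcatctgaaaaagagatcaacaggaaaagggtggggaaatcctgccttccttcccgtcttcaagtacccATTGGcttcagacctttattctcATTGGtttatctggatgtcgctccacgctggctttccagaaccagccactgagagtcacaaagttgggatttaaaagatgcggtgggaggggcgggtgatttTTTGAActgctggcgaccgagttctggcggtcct

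Replication and mitosis genes differed little between Mest-KO and control. Of the 43 tested, 0 passed the threshold over all genes (limma, adjusted p from 0.199 for Ccna2 to 0.999 for Cdc20), where 0.148% of all genes passed. At an unadjusted p under 0.05 there were 5, or 11.6%, close to the 8.97% of all genes at that level. These were Ccna2 and Cenpe, higher in Mest-KO, and Gins2, Birc5 and Cenpa, lower in Mest-KO, where 5.73% of all genes were higher and 3.24% lower at that level. That count was 1 (Ccna2) without Mest-KO 1 and 3 (Ccna2, Birc5 and Mcm5) without control 1, where 6.96% and 6.83% of all genes were at that level. It was 4 without control 2 and 5 without control 3, Mest-KO 2 or Mest-KO 3, where the share of all genes was 7.34% to 10.5%.

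The differences of these genes were small, with a median SE of 0.086, against 0.125 for all genes. The part of their brightness in these smaller errors was not tested. Log2 differences, Mest-KO minus control, ran from -0.28 for Gins2 to 0.33 for Ccna2, and 38 of the 43 were smaller than 0.2 in size. For 39 of the 43 (90.7%) the 95% interval lay within 0.5 of 0 on the log2 scale, as it did for 69.5% of all genes. The exceptions were Gins2 (-0.53 to -0.04), Tyms (-0.56 to 0.20), E2f1 (-0.04 to 0.50) and Ccna2 (0.15 to 0.51). Most differences nevertheless had the same sign, with 30 of 43 (69.8%) lower in Mest-KO, against 46.2% of all genes, and a median of -0.044 on the log2 scale, against 0.013 for all genes. The groups did not overlap for 10 of the 43 (23.3%), 8 lower and 2 higher in Mest-KO, where they did not overlap for 14.5% of all genes, 5.22% lower and 9.32% higher. These genes share regulators and cells, so they are not independent of each other. In bulk tissue such as this, fewer cycling cells and less RNA per cell cannot be told apart.

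**Figure D1:**
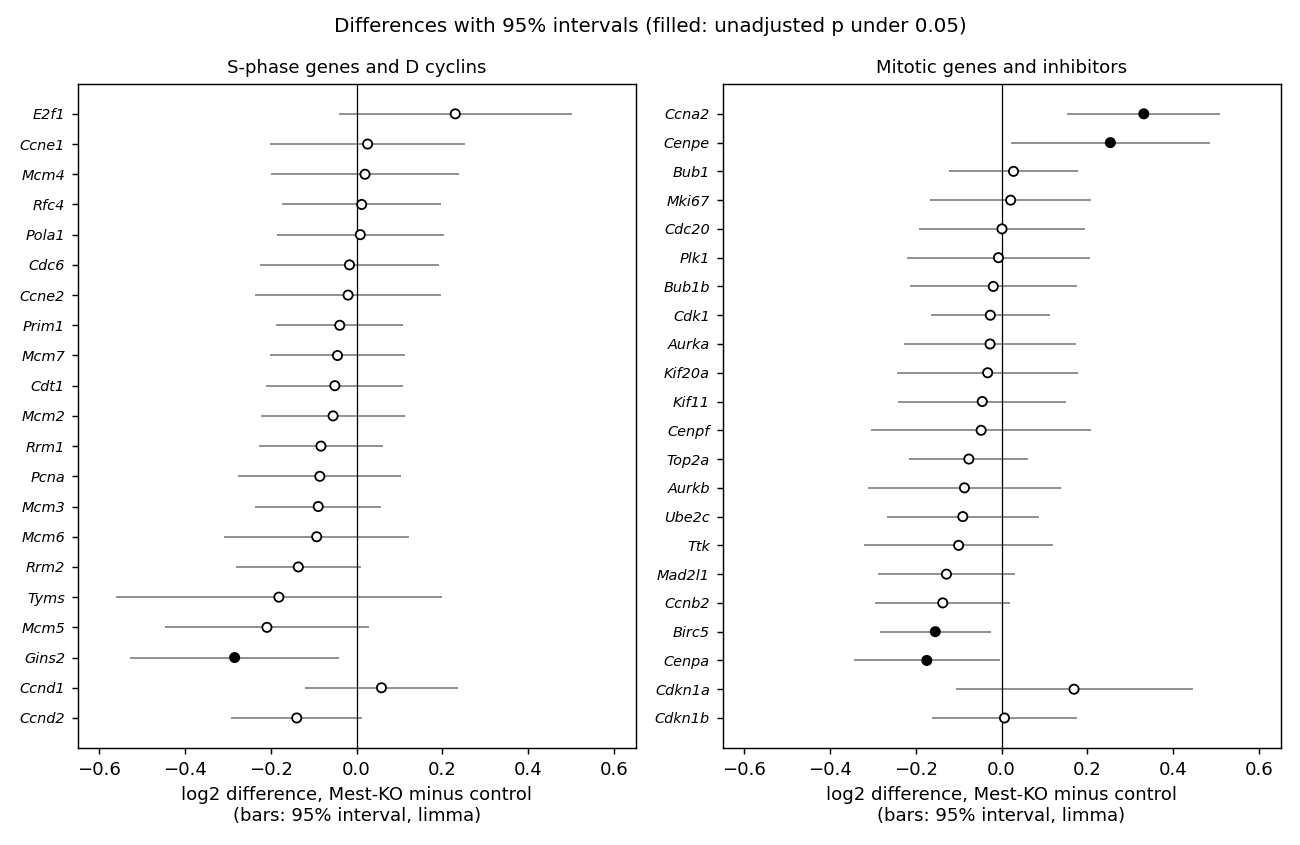
Log2 difference in intensity, Mest-KO minus control, for each gene (circles), with its 95% interval from limma (bars). S-phase genes and D cyclins are on the left and mitotic genes and inhibitors on the right. Filled circles mark the 5 genes at an unadjusted p under 0.05. Most circles lie slightly below 0, between -0.28 and 0.33.

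Among the S-phase genes the median log2 difference was -0.051 over 19 genes, with 14 lower and 5 higher in Mest-KO. At an unadjusted p under 0.05 there was 1 (5.26%), lower in Mest-KO, against 8.97% of all genes, 5.73% higher and 3.24% lower. The groups did not overlap for 3 (15.8%), all lower in Mest-KO, against 14.5% of all genes, 5.22% lower and 9.32% higher. Genes that load or activate the replicative helicase made up 9 of the 19. Mcm2 to Mcm7 encode the ring of the helicase itself, and their differences ran from -0.21 for Mcm5 to 0.02 for Mcm4. Mcm4 read 4886, 4683 and 4403 in Mest-KO 1, 2 and 3, against 4743, 3884 and 5247 in control 1, 2 and 3, so that the Mest-KO values lay inside the range of the controls (0.02 ± 0.10, SE). Mcm5 read 3191, 3460 and 2590 in Mest-KO, against 3185, 3774 and 3682 in control, with Mest-KO 3 lowest and control 1 among the Mest-KO values (-0.21 ± 0.11; limma, adjusted p = 0.609). Without Mest-KO 3 the Mcm5 difference was -0.090 ± 0.093. Mcm3 was the only MCM gene whose groups did not overlap, with 2949 ± 92.1 in Mest-KO and 3138 ± 82.6 in control (SD, n = 3 arrays each), a log2 difference of -0.09 ± 0.07. Cdc6 and Cdt1, whose products load the ring at origins, differed by -0.017 and -0.051.

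Gins2, a subunit of the GINS complex that turns the loaded ring into an active helicase, had the largest difference of the S-phase genes. It read 1133, 1474 and 1456 in Mest-KO 1, 2 and 3, against 1718, 1674 and 1536 in control 1, 2 and 3. All Mest-KO values lay below all controls, with Mest-KO 1 far the lowest. The log2 difference was -0.28 ± 0.11 (SE; limma, adjusted p = 0.465; exact permutation p = 0.1, the smallest that 3 against 3 can give). A second probe set read 1153, 1177 and 1186 in Mest-KO, against 1362, 1432 and 1199 in control, again without overlap and with a smaller difference of -0.18 ± 0.09. Mest-KO 1 also had the lowest ratios of 5′ to 3′ signal, at 0.502 for actin and 0.637 for Gapdh, where the other arrays read 0.533 to 0.576 and 0.679 to 0.744. Without Mest-KO 1 the difference was -0.16 ± 0.09.

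The replication fork genes Pcna, Pola1, Prim1 and Rfc4 did not separate the groups. Pcna, the sliding clamp that holds polymerases on DNA, read 5988, 6906 and 7643 in Mest-KO 1, 2 and 3, against 6726, 7485 and 7506 in control 1, 2 and 3, with the lowest and the highest value both in Mest-KO (-0.086 ± 0.086, SE). Without Mest-KO 1, the lowest, the difference for Pcna was 0.0071 ± 0.077. Pola1 and Prim1, the catalytic subunits of the polymerase and primase that start each strand, differed by 0.0086 and -0.039, and the clamp loader gene Rfc4 by 0.012. Pola1 was among the steadiest, at 886.1 ± 25.7 in Mest-KO and 880.6 ± 15.4 in control (SD, n = 3 arrays each).

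The genes for nucleotide supply differed by -0.18 to -0.083 by their main probe sets. Rrm2, the small subunit of ribonucleotide reductase, read 7154, 6962 and 7296 in Mest-KO 1, 2 and 3, against 7464, 7492 and 8623 in control 1, 2 and 3. The groups did not overlap, and control 3 stood above the other controls (-0.14 ± 0.07; limma, adjusted p = 0.582). Without control 3 the difference was -0.067 ± 0.052. Its other probe sets differed by -0.25 ± 0.10 and -0.21 ± 0.12, both with overlap. Rrm1, the large subunit, differed by -0.083 ± 0.066. Tyms, which makes thymidylate, read 310.9, 283.9 and 358.0 in Mest-KO, against 291.1, 473.5 and 339.5 in control, where control 2 alone was high (-0.18 ± 0.17). Without control 2 the difference was 0.0079 ± 0.154, and without control 1 it was -0.33 ± 0.18. The sign for Tyms is uncertain, because its other tested probe sets, both dim, differed by 0.60 ± 0.25 and 0.30 ± 0.17.

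Regulators of entry into S phase showed no common direction. The E cyclin genes Ccne1 and Ccne2 differed by 0.026 ± 0.103 and -0.020 ± 0.099. E2f1, a transcription factor that drives S-phase genes, read 634.9, 491.6 and 520.1 in Mest-KO 1, 2 and 3, against 442.3, 496.3 and 451.7 in control 1, 2 and 3, with Mest-KO 1 high and Mest-KO 2 inside the controls (0.23 ± 0.12; limma, adjusted p = 0.621). Without Mest-KO 1 the E2f1 difference was 0.12 ± 0.12. A dimmer probe set of E2f1 differed by -0.09 ± 0.15.

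Of the D cyclins, which couple growth signals to the cell cycle, Ccnd1 read 5992, 5811 and 6628 in Mest-KO 1, 2 and 3, against 5374, 6534 and 5825 in control 1, 2 and 3. Its groups overlapped (0.06 ± 0.08), while its dimmer probe sets differed by -0.11 ± 0.09 and -0.22 ± 0.12, both lower in Mest-KO without overlap. Ccnd2 read 6355, 7267 and 7521 in Mest-KO, against 7657, 8023 and 7560 in control. The groups did not overlap, though Mest-KO 3 and control 3 nearly touched (-0.14 ± 0.07; limma, adjusted p = 0.587). Of 7 probe sets of Ccnd2, 6 were lower in Mest-KO, with differences of -0.29 to -0.14, 4 had groups that did not overlap and 3 were at an unadjusted p under 0.05, where 9.70% of all probe sets were. The remaining probe set differed by 0.004 ± 0.107. Probe sets of a gene measure the same RNA and are not replicates, and 0 of the 7 passed over all probe sets (limma, adjusted p of 0.407 or more). Mest-KO 1 was the lowest Mest-KO array for 6 of the 7, and without it the main probe set differed by -0.067 ± 0.062.

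**Figure D2:**
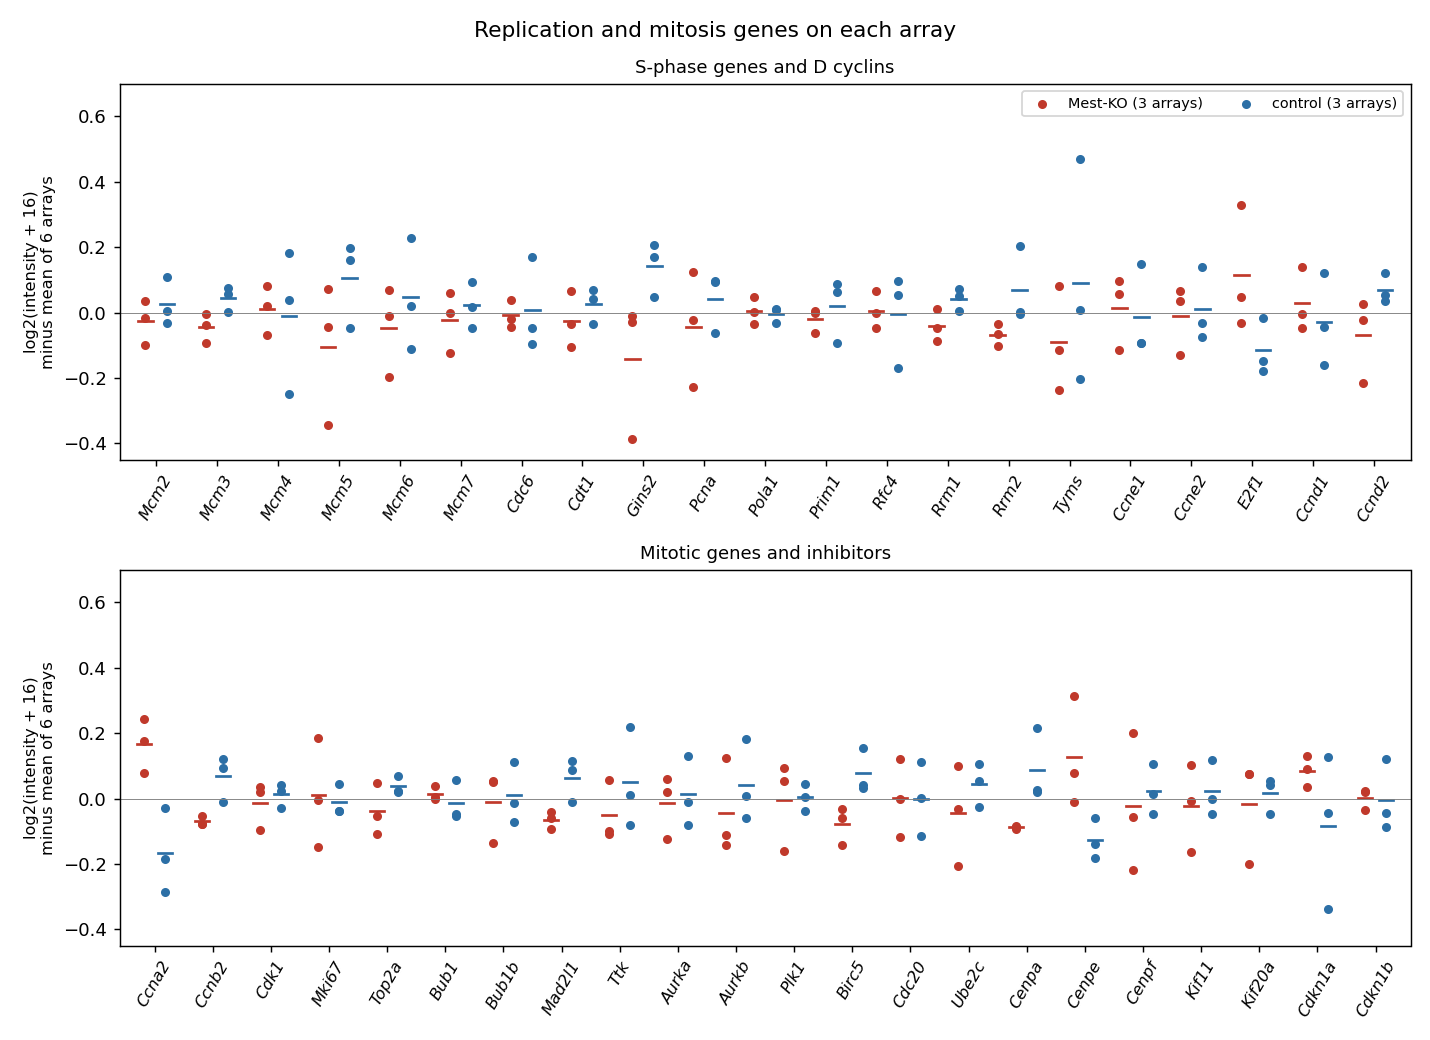
Log2(intensity + 16) of each gene on each array, minus its mean over the 6 arrays, for Mest-KO (red) and control (blue); short lines are group means. The upper panel shows S-phase genes and D cyclins and the lower panel mitotic genes and inhibitors. Points of the groups interleave for most genes and stand apart for 10, among them Gins2, Rrm2, Ccnd2, Ccna2, Birc5 and Cenpa.

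Among the mitotic genes the median log2 difference was -0.039 over 20 genes, with 15 lower and 5 higher in Mest-KO. Of these 20, 4 (20.0%) were at an unadjusted p under 0.05, 2 higher and 2 lower in Mest-KO. The share of all genes at that level was 8.97%, 5.73% higher and 3.24% lower. For 6 of the 20, 2 higher and 4 lower in Mest-KO, the groups did not overlap. They did not overlap for 14.5% of all genes, 9.32% higher and 5.22% lower. For general markers of cycling cells the groups overlapped. Mki67, the antigen of dividing cells, read 4387, 3480 and 3843 in Mest-KO 1, 2 and 3, against 3755, 3759 and 3977 in control 1, 2 and 3, so that the Mest-KO arrays spanned all the controls (0.02 ± 0.09, SE). Top2a, which untangles replicated chromosomes, read 4824, 4647 and 5171 in Mest-KO, against 5079, 5257 and 5089 in control (-0.08 ± 0.06). Cdk1, the kinase of mitotic entry, read 4522, 4900 and 4951 in Mest-KO, against 4737, 4978 and 4914 in control (-0.026 ± 0.063). Their 95% intervals ran from -0.17 to 0.21 for Mki67, from -0.21 to 0.06 for Top2a and from -0.16 to 0.11 for Cdk1.

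Ccna2, the A-type cyclin that acts in S phase and G2, had the smallest p of the 43 genes. Its main probe set read 4318, 4123 and 3851 in Mest-KO 1, 2 and 3, against 3209, 3574 and 2991 in control 1, 2 and 3. Every Mest-KO value lay above every control, a ratio of means of 1.26 and a log2 difference of 0.33 ± 0.08 (SE; limma, adjusted p = 0.199; exact permutation p = 0.1). The other probe set of Ccna2 did not show this, with 2730, 2814 and 2642 in Mest-KO, against 2759, 2973 and 2693 in control (-0.04 ± 0.07). Over the 18 alternative settings the Ccna2 difference ran from 0.15, with the mean of both probe sets, to 0.40, without control 2. Ccnb2, a B-type cyclin of mitotic entry, read 2386, 2344 and 2343 in Mest-KO, against 2693, 2642 and 2453 in control. These groups did not overlap, in the opposite direction to Ccna2 (-0.14 ± 0.07; limma, adjusted p = 0.613).

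The spindle checkpoint holds cells in metaphase until every chromosome is attached. By their main probe sets, its genes ran from -0.13 for Mad2l1 to 0.03 for Bub1. Bub1, a checkpoint kinase, read 2898, 2909 and 2977 in Mest-KO 1, 2 and 3, against 2804, 3020 and 2797 in control 1, 2 and 3, and the groups overlapped. A dimmer probe set of Bub1 differed by -0.27 ± 0.14, lower in Mest-KO without overlap, so the sign for Bub1 is uncertain. Mad2l1, which inhibits the anaphase-promoting complex, read 2212, 2135 and 2186 in Mest-KO, against 2465, 2421 and 2263 in control, without overlap (-0.13 ± 0.07; limma, adjusted p = 0.640). Bub1b differed by -0.019 ± 0.088. Ttk, the kinase that starts the checkpoint signal, differed by -0.10 ± 0.10 by its main probe set, and by -0.015 ± 0.107 without control 1. Its dimmer probe set had the largest difference of any probe set of these genes, at 495.5, 374.9 and 378.5 in Mest-KO, against 329.8, 209.9 and 207.0 in control. There the groups did not overlap, and the difference was 0.73 ± 0.19 (limma, adjusted p = 0.241 over all probe sets), so the probe sets of Ttk went opposite ways.

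The mitotic kinases and their partner survivin were all at or slightly below control. Birc5, which encodes survivin, a subunit of the chromosomal passenger complex, read 7130, 7562 and 7711 in Mest-KO 1, 2 and 3, against 8112, 8061 and 8769 in control 1, 2 and 3. Its groups did not overlap, and the log2 difference was -0.15 ± 0.06 (limma, adjusted p = 0.454), a ratio of means of 0.898. Aurkb, the kinase of that complex, differed by -0.086 ± 0.102, Aurka, the kinase of spindle poles, by -0.027 ± 0.091 and Plk1 by -0.0072 ± 0.097. In anaphase, Ube2c, the ubiquitin-conjugating enzyme of the anaphase-promoting complex, read 4712, 5326 and 5835 in Mest-KO, against 5642, 5860 and 5347 in control, with overlap (-0.09 ± 0.08). Its activator Cdc20 differed by 0.0010 ± 0.088.

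Centromere genes and mitotic motors showed small differences in both directions. Cenpa, which marks the centromere, read 2345, 2335 and 2348 in Mest-KO 1, 2 and 3, against 2893, 2526 and 2534 in control 1, 2 and 3. The Mest-KO arrays were almost equal and all lay below the controls, of which control 1 was highest (-0.17 ± 0.08; limma, adjusted p = 0.549). Without control 1 the difference was -0.11 ± 0.09. Cenpe, a kinesin that moves chromosomes to the metaphase plate, read 1253, 996.3 and 1060 in Mest-KO, against 910.5, 883.2 and 963.5 in control, without overlap (0.25 ± 0.11; limma, adjusted p = 0.505). Its other probe set read 391.1, 442.4 and 520.7 in Mest-KO, against 592.7, 555.5 and 576.4 in control, also without overlap but lower in Mest-KO (-0.35 ± 0.12). No direction can therefore be given for Cenpe. Without Mest-KO 1 its main probe set differed by 0.16 ± 0.10. Cenpf, Kif11 and Kif20a, a kinetochore protein and the motors of spindle bipolarity and of cytokinesis, differed by -0.048 ± 0.116, -0.045 ± 0.089 and -0.032 ± 0.095. Dimmer probe sets of Cenpf differed by -0.30 ± 0.14, without overlap, and by -0.15 ± 0.19, with overlap.

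For both inhibitor genes the groups overlapped. Cdkn1a, which encodes p21, a p53-induced brake on cyclin-dependent kinases, read 712.5, 733.1 and 685.6 in Mest-KO 1, 2 and 3, against 648.0, 732.4 and 526.3 in control 1, 2 and 3, with control 3 lowest and overlap through control 2 (0.17 ± 0.13; limma, adjusted p = 0.744). The Cdkn1a difference was 0.043 ± 0.115 without control 3 and 0.28 ± 0.13 without control 2. Cdkn1b, which encodes p27, a brake found in cells leaving the cycle, read 2690, 2801 and 2794 in Mest-KO, against 2671, 2593 and 2998 in control (0.0068 ± 0.076). Its interval ran from -0.16 to 0.18.

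The array design gave a further view, since 30 of the genes had several tested probe sets. Of the 93 probe sets tested, 0 passed over all 31526 (smallest limma adjusted p = 0.231) and 14 were at an unadjusted p under 0.05, 4 higher and 10 lower in Mest-KO, where 9.70% of all probe sets were at that level. All probe sets of a gene had the same sign for 15 of the 30, lower in 12 and higher in 3, and the sign was mixed for the other 15. Mcm3 was lower by all 5 of its probe sets (-0.21 to -0.058), and Mcm5, Rrm2, Bub1b, Cenpa, Cenpf and Kif11 by all 3 of theirs. For Kif11 the difference grew from the brightest to the dimmest probe set, at -0.045 ± 0.090, -0.18 ± 0.11 and -0.49 ± 0.18. The mean of all probe sets in place of the brightest left 5 of the 43 genes at an unadjusted p under 0.05, but only Gins2 and Birc5 were among the 5 named above, and Ccnd2, Rrm2 and Ttk replaced Ccna2, Cenpa and Cenpe. With that mean, 9.6% of all genes were at that level.

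**Figure D3:**
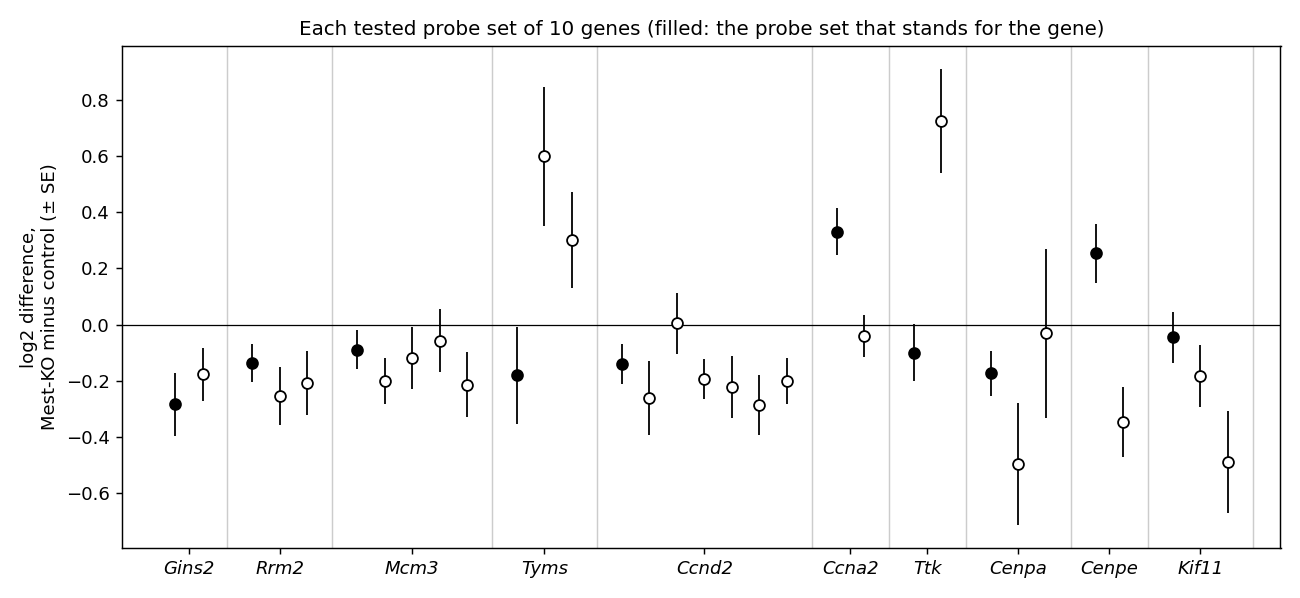
Log2 difference, Mest-KO minus control, with its SE, for every tested probe set of 10 genes, from the brightest on the left of each gene. Filled circles mark the probe set that stands for the gene. Probe sets of Gins2, Rrm2, Mcm3, Cenpa and Kif11 all lie below 0, those of Ccna2, Ttk, Cenpe and Tyms on both sides.

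Wider lists of cell cycle genes gave similarly small differences. Of 26 further replication genes tested, 18 were lower in Mest-KO and 0 passed over all genes, with a median of -0.058. At an unadjusted p under 0.05 there were 3 (11.5%), all higher, where 8.97% of all genes were at that level, 5.73% higher and 3.24% lower. The groups did not overlap for 3 (11.5%), all higher, against 14.5% of all genes, 9.32% higher and 5.22% lower. The smallest p values belonged to Pold1, the catalytic subunit of polymerase delta (0.19 ± 0.07), and Cdc7, a kinase that fires origins (0.21 ± 0.09), and on the lower side to the ubiquitin protease gene Usp1 (-0.18 ± 0.10) and Uhrf1 (-0.15 ± 0.08), which maintains DNA methylation at forks. Of 39 further mitosis genes, 29 were lower and 0 passed, with a median of -0.048. At an unadjusted p under 0.05 there were 5 (12.8%), all lower, where 3.24% of all genes were lower. The groups did not overlap for 5 (12.8%), all lower, against 14.5% of all genes, 5.22% lower and 9.32% higher. Nuf2, a subunit of the NDC80 complex that ties kinetochores to microtubules, had the smallest p. It read 1731, 1706 and 1750 in Mest-KO 1, 2 and 3, against 2135, 2072 and 2108 in control 1, 2 and 3, and the arrays of each group lay close together and far from the other (-0.28 ± 0.07; limma, adjusted p = 0.207). The phosphatase gene Cdkn3 differed by -0.29 ± 0.12, and on the higher side Foxm1, which encodes the transcription factor of G2 genes, by 0.12 ± 0.11 and the phosphatase gene Cdc25c by 0.08 ± 0.08.

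Of 24 further genes of G1 control and cell cycle exit, 12 were lower, 12 were higher and 0 passed, with a median of -0.0066. At an unadjusted p under 0.05 there were 4 (16.7%), 1 higher and 3 lower, against 8.97% of all genes, 5.73% higher and 3.24% lower. The groups did not overlap for 7 (29.2%), 2 higher and 5 lower, against 14.5% of all genes, 9.32% higher and 5.22% lower. Btg1, an antiproliferative gene, read 4144, 4415 and 4628 in Mest-KO 1, 2 and 3, against 5062, 4781 and 5873 in control 1, 2 and 3, without overlap (-0.25 ± 0.08; limma, adjusted p = 0.363). Cdkn2c, which encodes the CDK4 and CDK6 inhibitor p18, read 119.3, 105.7 and 96.1 in Mest-KO, against 180.3, 124.0 and 158.0 in control (-0.46 ± 0.16; limma, adjusted p = 0.417). Cdc25a, a phosphatase that activates S-phase kinases, differed by 0.18 ± 0.08 and Trp53inp1, a p53 target, by 0.13 ± 0.07. Brakes and drivers of the cycle were both among the genes with the smallest p.

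Averaged over the 19 S-phase or the 20 mitotic genes, the arrays of the groups overlapped. Relative to the mean of the 6 arrays, the S-phase genes averaged -0.0098, -0.016 and -0.060 on the log2 scale in Mest-KO 1, 2 and 3, against -0.014, 0.062 and 0.038 in control 1, 2 and 3, so that control 1 lay among the Mest-KO arrays. The mitotic genes averaged 0.013, -0.073 and 0.021 in Mest-KO, against 0.012, 0.042 and -0.015 in control. Here Mest-KO 2 was low and the other Mest-KO arrays lay among the controls. The S-phase and mitotic means did not move together in every pool, since Mest-KO 3 was the lowest of the 6 arrays for S-phase genes and above 4 of the others for mitotic genes. The averages of the further lists were as small, but for 2 of the 3 lists the groups did not overlap. The 39 further mitosis genes averaged 0.0070, -0.061 and -0.046 in Mest-KO 1, 2 and 3, against 0.049, 0.012 and 0.039 in control 1, 2 and 3. The 24 genes of G1 control and exit averaged -0.0025, -0.038 and -0.010 in Mest-KO, against 0.011, 0.0087 and 0.031 in control. Both lists thus read lower on every Mest-KO array than on any control array, by a mean of -0.067 and -0.034 on the log2 scale. The 26 further replication genes averaged 0.021, -0.061 and 0.010 in Mest-KO, against -0.0054, 0.032 and 0.0030 in control, with overlap.

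Markers of other cells in the dissection differed between the groups or between arrays. Of 15 tested genes of neurons, which do not divide, all 15 were higher in Mest-KO, and their summed intensity was 48916 to 51436 in Mest-KO and 41732 to 45359 in control, with 0 of 15 at background on all arrays. Of these, 1 passed over all genes, Pou4f1, a transcription factor of sensory neurons, with 2021, 2010 and 2061 in Mest-KO 1, 2 and 3, against 1429, 1247 and 1365 in control 1, 2 and 3 (0.59 ± 0.08; limma, adjusted p = 0.0256). Of 16 neural tube markers with a probe set, 11 were tested and all 11 were lower in Mest-KO. Their summed intensity was 394 to 820 in Mest-KO and 685 to 2121 in control, with overlap through control 2, and 3 of the 16 were at background on all arrays. Erythroid markers, of which 9 were tested, summed to 32069 to 38965 in Mest-KO and 38006 to 40108 in control. Pharyngeal endoderm markers, 5 genes, summed to 1595 to 1841 in Mest-KO and 2415 to 3087 in control, and 1 of them, Foxa1, passed (-1.34 ± 0.17; limma, adjusted p = 0.0191). Blood endothelium markers were higher in Mest-KO for 7 of 7 genes and summed to 4626 to 5031 in Mest-KO and 4301 to 4482 in control. Macrophage markers were higher for 4 of 4 and summed to 1479 to 1957 in Mest-KO and 1331 to 1519 in control, with 0 genes of either list past the threshold. Y-linked genes, 3 in number, summed to 2289 to 2609 in Mest-KO and 1378 to 2577 in control. The part of neurons, erythroid cells, endoderm, endothelium and macrophages in the values of the replication and mitosis genes was not tested. With the mean of the Y-linked genes in the model the genes at an unadjusted p under 0.05 were Mcm5 and Ccna2, where 6.62% of all genes were at that level. With the neural tube list in the model the medians were -0.083 for S-phase genes and -0.13 for mitotic genes. There the genes at an unadjusted p under 0.05 were Mcm4 and Tyms, where 5.48% of all genes were at that level.

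**Figure D4:**
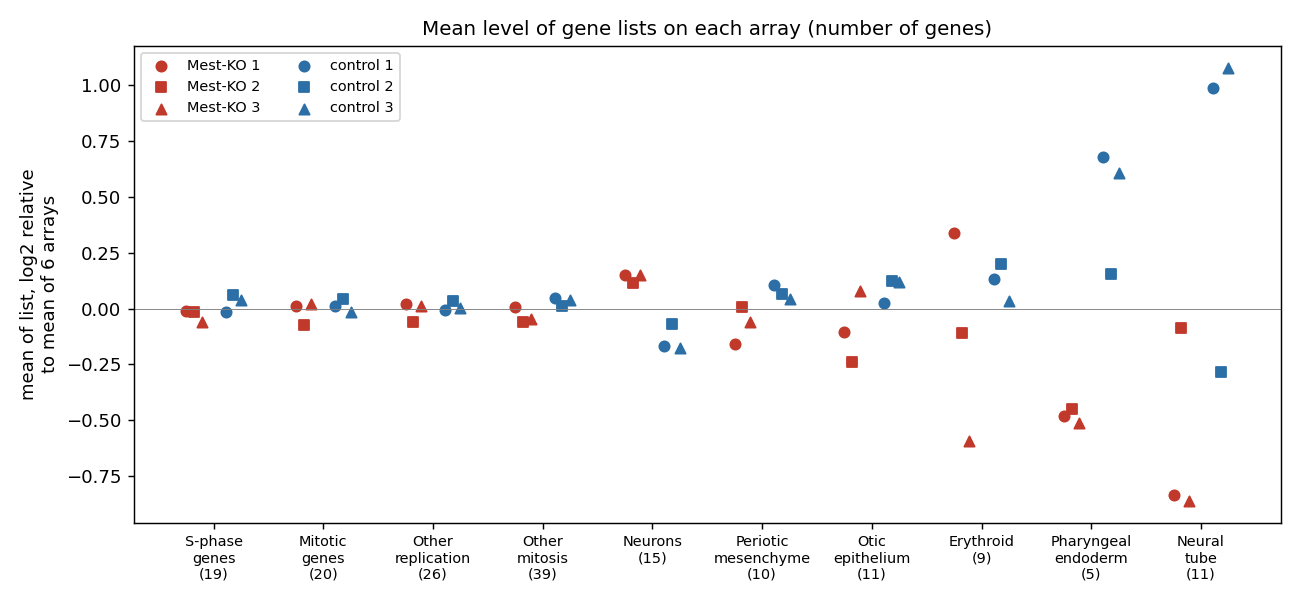
Mean of each gene list on each array, as log2 relative to the mean of the 6 arrays, for Mest-KO (red) and control (blue); shapes mark replicates 1, 2 and 3, and numbers in brackets are genes in the list. The S-phase and mitotic genes lie within 0.073 of 0 on every array, while neural tube markers range from -0.86 to 1.08.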

How the data were processed

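Biotin-labelled RNA from 6 pools (3 Mest-KO, 3 control) was hybridised to Affymetrix mouse genome arrays, prepared from 300 ng of total RNA per the labels' protocols. The deposited values are linear intensities. The submitters' processing notes name Affymetrix Expression Console 1.1, while summarization method, background correction and genome build were not given in the sources used here. All 6 deposited arrays of intensities have a trimmed mean of 500.002 (2% off each end), so the arrays had been scaled to a common mean. Their medians ran from 60.0 to 70.6, so the arrays were not quantile normalized. The number of arrays limits the precision.

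Of 45101 probe sets, 64 control probe sets were left out. GEO's platform annotation gave 34945 probe sets 1 gene symbol, 932 several, and did not list 9160; symbols were updated through Entrez identifiers to RefSeq GRCm38.p6. Where a gene had several probe sets, the one brightest on average across all 6 arrays stood for it, and genes above the 30th percentile were kept (14170 of 18193). Intensities were tested as log2(intensity + 16) with limma 3.58.1 in R 4.3.3, with genotype alone, a trended prior and Benjamini-Hochberg adjustment over all genes kept, at 0.05, two-sided. A difference is on the log2(intensity + 16) scale. Exact permutation tests were two-sided, and 3 arrays against 3 cannot go below p = 0.1. The code was tested on simulated data. There it recovered 6 of 67 genes changed 1.25-fold, 26 of 67 changed 1.5-fold and 47 of 66 changed 2-fold. The labels call the pools biological replicates.

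The genes and lists were chosen with earlier results of these data known. Values on every array are given by rule for genes at an unadjusted p under 0.05, for the gene of highest mean and the gene of largest absolute difference in each role (the D cyclins counted among the G1-S regulators), and for the D cyclins, the inhibitors, Mki67, Pcna, Top2a and Cdk1. Array values of Mcm5 and Ccnb2 and those of other probe sets were added after their values were seen. For further lists the 2 genes of smallest p in each direction are named. The 18 alternatives are in the closing section.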

Additional observations from a re-analysis of the deposited data

How the results depend on the processing

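Over the 18 alternatives (another normalization, pseudocount, filter, probe set rule or variance model, array weights, a replicate block, 2 covariates, and leaving out each array) 0 of the 43 genes passed the adjusted threshold. The lowest adjusted p (limma) was 0.0684, for Ccna2 without control 2. The difference kept its sign in all 18 for 15 of the 43 genes, among them Gins2, Birc5, Cenpa and Ccna2, and turned in at least 1 for 28, of which Cenpe had the largest main difference. The cause of these changes was not tested.

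The count of all genes past the threshold, 21, became 78 with arrays centred on their medians (22 higher and 56 lower, against 12 and 9), 2 with no filter, 6 with the mean of all probe sets, 1 without the trend, 9 with the replicate block, 4 with the neural tube covariate, and 2 to 82 with an array left out. Without control 2 it was 82. The count of members at an unadjusted p under 0.05, 5, became 3 with quantile normalization, 2 without the trend, 2 with the Y-linked covariate, 2 with the neural tube covariate, and 1 to 5 with an array left out. The share of all genes at that level, 8.97%, was 9.01%, 9.48%, 6.62% and 5.48% in those settings, and 6.83% to 10.5% with an array left out. The S-phase median, -0.051, became -0.031 with quantile normalization, -0.12 with arrays centred and -0.083 with the neural tube covariate, and was -0.085 to -0.019 with an array left out. The mitotic median, -0.039, became -0.10 with arrays centred and -0.13 with the neural tube covariate, and was -0.071 to -0.014 with an array left out. It was also -0.082 with the mean of all probe sets and -0.061 with the Y-linked covariate. Centring moved the median of all genes to -0.052, and relative to it the shift of both sets was of a like size to before.

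Signs turned as follows. Quantile normalization gave Pola1 -0.011 and Cdk1 0.0092. Centring gave Mcm4 -0.045, Pola1 -0.057, Rfc4 -0.053, Ccne1 -0.039, Ccnd1 -0.0071, Mki67 -0.044, Bub1 -0.037, Cdc20 -0.064 and Cdkn1b -0.058. The mean of all probe sets gave Mcm7 0.0026, Pola1 -0.053, Rfc4 -0.039, Tyms 0.18, E2f1 -0.031, Ccnd1 -0.093, Top2a 0.14, Bub1 -0.12, Ttk 0.31, Cdc20 -0.073, Cenpe -0.047 and Cdkn1b -0.045. Array weights gave Cdc6 0.0096, Ccne2 0.015, Mki67 -0.0023 and Cdc20 -0.023. The Y-linked covariate gave Rfc4 -0.043, Ccne1 -0.074, Ccnd1 -0.0053, Bub1 -0.0057 and Cdc20 -0.056. The neural tube covariate gave Mcm6 0.097, Cdt1 0.0070, Rfc4 -0.064, Ccne1 -0.086, Ccne2 0.059, Ccnd1 -0.14, Mki67 -0.040, Bub1 -0.051, Cdc20 -0.18, Cenpf 0.0079 and Cdkn1a -0.030. With an array left out the ranges were -0.10 to 0.12 for Mcm4, -0.085 to 0.0068 for Mcm7, -0.069 to 0.064 for Cdc6, -0.17 to 0.0071 for Pcna, -0.013 to 0.028 for Pola1, -0.070 to 0.063 for Rfc4, -0.33 to 0.0079 for Tyms, -0.017 to 0.11 for Ccne1, -0.063 to 0.044 for Ccne2, -0.0082 to 0.13 for Ccnd1, -0.050 to 0.015 for Cdk1, -0.066 to 0.10 for Mki67, -0.060 to 0.043 for Bub1b, -0.074 to 0.032 for Aurka, -0.055 to 0.070 for Plk1, -0.059 to 0.060 for Cdc20, -0.16 to 0.049 for Cenpf, -0.11 to 0.026 for Kif11, -0.079 to 0.060 for Kif20a and -0.035 to 0.069 for Cdkn1b.

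The labels do not say whether same-numbered pools were paired. Deviations of same-numbered arrays from their group means correlated at -0.028, -0.11 and -0.15. These values show no shared effect but cannot show that the pools were unpaired. With the replicate block 4 members were at an unadjusted p under 0.05, where 8% of all genes were at that level, and 9 of all genes passed. Dim probe sets, such as the others of Tyms, have wide errors.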
